A study of Caenorhabditis elegans with 2 samples.

Results

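The 70 nuclear genes for proteins of the mitochondrial ribosome were examined for binding of CEH-28 fused to eGFP, in L3 larvae of Caenorhabditis elegans used whole. They are the protein-coding genes of the Ensembl WBcel235 annotation whose names start with mrpl- (41 genes, large subunit) or mrps- (29 genes, small subunit), out of 19973 protein-coding genes. The measurements are lists of peaks from ChIP-seq, an assay that sequences the DNA fragments pulled down with the tagged protein. All samples belonged to 1 group with 2 biological replicates: strain OP241, which carries unc-119(ed3) III and the integrated transgene wgIs241 with the tagged ceh-28, as L3 larvae with males and females pooled and no exact age given. Library fragments ran from 150 to 350 bp. Peaks were called with a control for each replicate, but there is no group of larvae to compare with, and expression was not measured. The cells in which a site was bound cannot be told from whole larvae.

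Mitochondria keep a small genome that codes for core subunits of the respiratory chain, and a ribosome of their own translates it. The proteins of that ribosome are encoded in the nucleus, made in the cytosol and imported, so the particle depends on both genomes. Its proteins are named by descent: those shared with all ribosomes carry u, those shared only with bacteria carry b, and those found only in mitochondria carry m. In worms, lowering single proteins of this ribosome during larval growth is known to induce the mitochondrial unfolded protein response and to lengthen life. The tagged protein, CEH-28, is a transcription factor with an NK-2 type homeodomain that was studied in M4, a motor neuron of the pharynx.

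A summit, the highest point of a peak, was assigned to a gene when it lay between 1000 bp upstream and 200 bp downstream of any annotated 5' end of that gene. In the authors' thresholded list of 3531 peaks, 13 of the 70 mitochondrial ribosomal protein genes had such a summit, or 18.6% (95% Wilson interval 11.2 to 29.2%, for counting error of genes only). The share over all protein-coding genes was 11.2%, at the lower edge of that interval, and over autosomal genes 11.3%. The genes for the large subunit had a summit at 7 of 41 (17.1%) and those for the small subunit at 6 of 29 (20.7%). The ribosome of the cytosol stood far above this: 57 of its 81 protein genes (rpl-, rps- and rla-) had a summit, or 70.4% (59.7 to 79.2%). A set of nuclear respiratory chain and ATP synthase genes, taken by name, had one at 17 of 38 (44.7%, 30.1 to 60.3%). The names were those starting with nuo-, cox-, ucr-, atp- or sdha- to sdhd-, and mev-1, cyc-1 and isp-1. Subunit genes with other names, such as F29B9.11, annotated as a cytochrome c oxidase polypeptide, are not in this set. Neither the cytosolic nor the respiratory chain interval overlaps that of the mitochondrial ribosomal protein genes in this count. The respiratory chain interval starts just above it, at 30.1% against 29.2%. These shares are descriptions of the lists, and no test was run on them.

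The sequence at the summits is shown for 7 of the 13 genes, chosen to show each motif found and 1 summit with none. All are read on the plus strand of WBcel235 (ce11) from RefSeq, 5′ to 3′, and capitals mark a match to the word AATCGAT, to the word AATCAAT or to the word CTGCGTC, on either strand. A match on the minus strand is thus printed as its reverse complement, so the capitals at mrps-28 and mrps-17 are AATCGAT, and those at mrpl-55 are AATCAAT, read from the other strand. The stretches at mrps-28 (chrV:19644031-19644113), mrpl-55 (chrIV:443852-443952), mrps-7 (chrIV:14767856-14767956), mrps-17 (chrIII:6431975-6432075) and mrpl-28 (chrII:156061-156161) hold the summit. Those at mrpl-40 (chrIII:87320-87346) and mrpl-30 (chrIII:2411233-2411259) are short sites, since their summits fall in untranslated exons of a neighbouring gene.
mrps-28: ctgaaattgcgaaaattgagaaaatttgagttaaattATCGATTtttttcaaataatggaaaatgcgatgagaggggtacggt
mrpl-40: ttgtccgaaAATCGATTagggacgacg
mrpl-55: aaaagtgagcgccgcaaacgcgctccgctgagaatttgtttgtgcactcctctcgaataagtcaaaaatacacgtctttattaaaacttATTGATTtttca
mrps-7: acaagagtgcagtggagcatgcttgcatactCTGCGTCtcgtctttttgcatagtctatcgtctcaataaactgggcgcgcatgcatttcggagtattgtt
mrpl-28: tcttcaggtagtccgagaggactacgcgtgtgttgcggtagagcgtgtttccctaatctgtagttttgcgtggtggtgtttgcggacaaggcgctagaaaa
mrpl-30: aaAATCAATaAATCAATaaatccttgg
mrps-17: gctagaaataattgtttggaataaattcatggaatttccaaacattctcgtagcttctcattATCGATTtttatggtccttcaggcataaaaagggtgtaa

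At mrpl-40 the capitals join 2 overlapping matches to AATCGAT, 1 on each strand. At mrpl-30 AATCAAT occurs 2 times in a row with a single base between, and AATCGAT lies within 50 bp of the same summit, beyond the site shown. AATCGAT and AATCAAT were the leading 7-base words in earlier results of these data, so their presence at these peaks is no independent finding. Within 50 bp of the summit, on both strands, AATCGAT lay at 5 of the 14 thresholded summits of the mitochondrial ribosomal protein genes (35.7%) and at 471 of all 1863 promoter summits (25.3%). For AATCAAT the counts were 2 of 14 (14.3%) and 337 of 1863 (18.1%). Either word was present at 6 of 14 (42.9%, Wilson interval 21.4 to 67.4%) and at 705 of 1863 (37.8%), so the share among all promoter summits lay well inside the interval. CTGCGTC was found at 1 of 14 (7.14%), the summit of mrps-7, and at 188 of 1863 (10.1%). The words TCAAGTG and TTAAGTG, known as binding sequences of NK-2 class proteins, were found at none of the 14, which allows a share of up to 21.5% by the Wilson interval, and at 18 of 1863 (0.966%).

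The same words were counted in 101-bp windows centred 150 bp upstream of the 5' end, whether or not a peak lay there. AATCGAT or AATCAAT was present in this window at 9 of the 70 mitochondrial ribosomal protein genes (12.9%) and at 1490 of all 19973 genes (7.46%). CTGCGTC was present at 3 of 70 (4.29%) and at 354 of 19973 (1.77%). Neither NK-2 word was present at any of the 70, and 1 of them was at 424 of 19973 (2.12%). These counts among the 70 genes are small and no interval was computed for them, so no difference from all genes is read from them. The median GC content of the 101 bp around the summits was 39.1% for the 14 summits and 41.6% for all promoter summits.

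Each peak carries a signal, the authors' own value, which is used here only to rank peaks within a list. The strongest summit of each of the 13 genes had a median signal of 184 at rank 894 of 3531, against 107 at rank 1830 for all promoter summits. These medians are not like for like, since the second also counts the weaker summits of genes with several. Of the 13 genes, 11 had a summit above the median signal of the list, 109.5. These were 15.7% of the 70 genes, against 5.66% of all genes. None was near the top of the list, where the signal reached 5643. The lowest signal in the list was 65.9. All 14 summits had the highest −log10 q-value in the list, which does not rank them.

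Among the genes for the small subunit, mrps-28 had the strongest peak (chrV:19643933-19644168). Its signal was 293 at rank 440 in the thresholded list, with rank 459 in the replicate 1 list and rank 416 in the replicate 2 list. The summit lay 176 bp upstream of mrps-28 and 33 bp upstream of the divergent gene Y43F8C.7, which codes for subunit 10 of the ER membrane protein complex. Both genes start on either side of this 1 summit, so it cannot be given to mrps-28 alone.

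The gene mrps-7 codes for uS7m, a protein of the head of the small subunit that is shared with all ribosomes. Its peak (chrIV:14767706-14768105) had a signal of 204 at rank 763, with rank 866 in replicate 1 and rank 729 in replicate 2. The summit was 176 bp upstream of mrps-7 and 295 bp upstream of Y57G11C.3, a putative 6-phosphogluconolactonase. For mrps-17, which codes for uS17m, a protein that in bacteria binds ribosomal RNA early in assembly, the signal was 122 at rank 1511 (chrIII:6431825-6432224). Its summit lay 227 bp upstream of mrps-17 and 153 bp upstream of txdc-9, a thioredoxin domain gene. The ranks of the mrps-17 peak, 1537 in replicate 1 and 1607 in replicate 2, were close to each other.

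The peak assigned to mrps-21 (chrIV:4660429-4660596, signal 237, rank 603) lay at the far edge of the window, 996 bp upstream. It was nearer to F29B9.11, annotated as cytochrome c oxidase polypeptide VIIc, at 312 bp, and to the histone demethylase gene jmjd-1.2 at 478 bp. F29B9.11 precedes mrps-21 on the same strand, so a gene for a respiratory chain subunit and a gene for the mitochondrial ribosome lie downstream of 1 summit. In replicate 2 the peak ranked 758 with its summit 9 bp away, outside the window of mrps-21, while in replicate 1 it ranked 563.

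Taking the strongest peak of each gene, mrps-12 and mrps-16 had the weakest. The peak of mrps-12, the gene for uS12m of the decoding centre, had a signal of 89.7 at rank 2290, 166 bp upstream of the gene (chrV:20837714-20838113). It ranked 2727 in replicate 1 and 2162 in replicate 2. Its summit also lay in the window of exos-7, 951 bp upstream of that gene. The peak of mrps-16, the gene for bS16m, had a signal of 78.2 at rank 2797, 267 bp upstream (chrII:5473906-5474305). The mrps-16 peak ranked 2500 in replicate 1 and 4394 in replicate 2. It was the only peak among the 13 strongest without a partner among the 3531 strongest peaks of both replicates.

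Among the genes for the large subunit, mrpl-40, which codes for the mitochondria-specific protein mL40, had the strongest peak (chrIII:87257-87456, signal 251, rank 549). It ranked 562 in replicate 1 and 627 in replicate 2. Its summit lay 210 bp upstream of mrpl-40 and 32 bp downstream of the 5' end of F54C4.4, in its untranslated exon, and also in the window of attf-3 at 965 bp. The peak of mrpl-55 (chrIV:443790-443983, signal 228, rank 635) had its summit 83 bp upstream of the gene, the shortest distance among the 13, and no other gene shared it. It ranked 577 in replicate 1 and 859 in replicate 2. The peak of mrpl-28, the gene for bL28m, was likewise unshared (chrII:156043-156203, signal 190.1, rank 844). Its summit was 102 bp upstream, with ranks of 904 in replicate 1 and 810 in replicate 2.

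The peak of mrpl-30 (chrIII:2411151-2411367, signal 184, rank 894) ranked 609 in replicate 1 and 2154 in replicate 2, so the replicates differed widely. Its summit lay 270 bp upstream, in an untranslated exon of W04B5.5, a protein kinase gene that precedes mrpl-30 on the same strand. The gene mrpl-45 codes for mL45, which in mammals anchors the ribosome to the inner membrane. Its peak (chrIII:1202122-1202521) had a signal of 149 at rank 1162, with 1234 in replicate 1 and 1194 in replicate 2, and was 314 bp upstream of mrpl-45 and 224 bp upstream of Y119D3B.12, a LUC7-related splicing factor gene.

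The remaining large subunit genes had summits farther away. The gene mrpl-12, named for the stalk protein that in bacteria recruits translation factors, had a summit at 547 bp (chrIII:10707014-10707413, signal 144, rank 1218). That summit was closer to Y39A1A.21 at 192 bp, annotated as the lysine N-methyltransferase of ATP synthase subunit C, and to Y39A1A.22 at 186 bp. It ranked 1378 in replicate 1 and 1364 in replicate 2. The gene mrpl-15, which codes for uL15m, was the only one of the 13 with 2 summits. The stronger had a signal of 147 at rank 1178 and lay 954 bp upstream, and the weaker had a signal of 84.3 at rank 2502 and lay 709 bp upstream. In replicate 1 they ranked 1297 and 3025, and in replicate 2 they ranked 1081 and 1986. Their intervals overlap, and no other gene had either in its window.

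**Figure D1:**
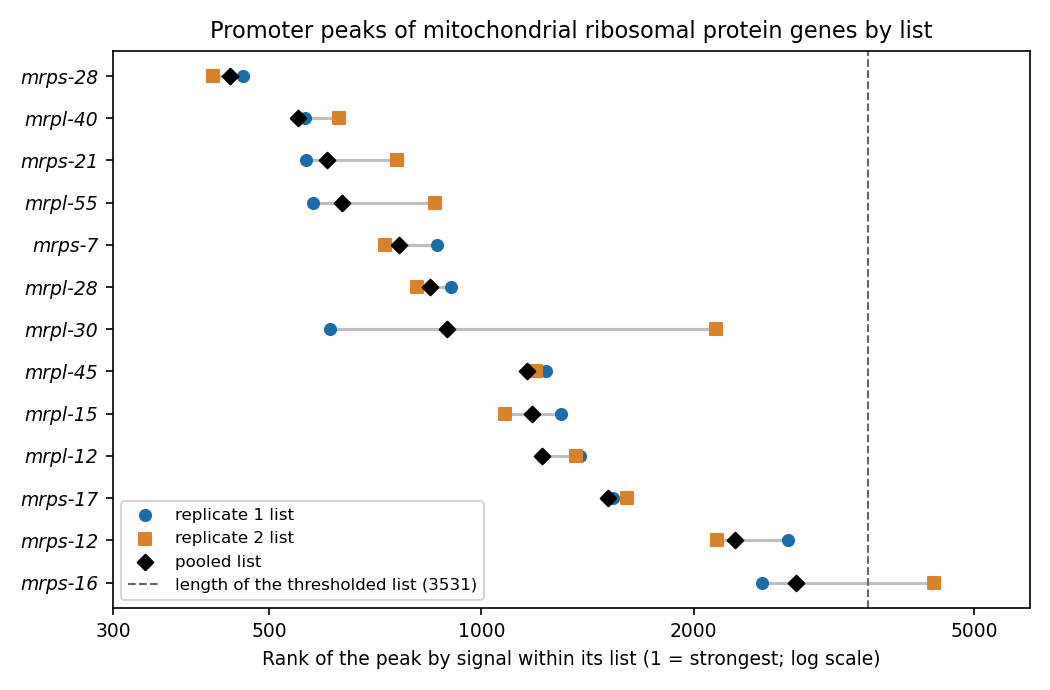
Rank of the strongest promoter peak of each of the 13 mitochondrial ribosomal protein genes within the replicate 1, replicate 2 and pooled lists (log axis, 1 is the strongest peak); the dashed line marks the length of the thresholded list, 3531. The markers of most genes lie close together, mrpl-30 is spread from 609 to 2154, and mrps-16 at 4394 in replicate 2 is the only point beyond the line.

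Of the 13 genes, 9 had their strongest summit within 300 bp upstream of the 5' end, and none had it downstream. Over all genes with a thresholded summit, 52.6% had the strongest one within 300 bp upstream. The median distance was 227 bp upstream for the 13 genes and 232 bp upstream for all genes with a summit. Of the 14 summits, 8 lay in the window of at least 1 other gene, against 503 of all 1863 promoter summits (27%). A summit in several windows has more genes through which a gene set can reach it, so these shares are not like for like. Only mrpl-55, mrpl-28, mrpl-30, mrpl-15 and mrps-16 had summits that no other gene shared.

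**Figure D2:**
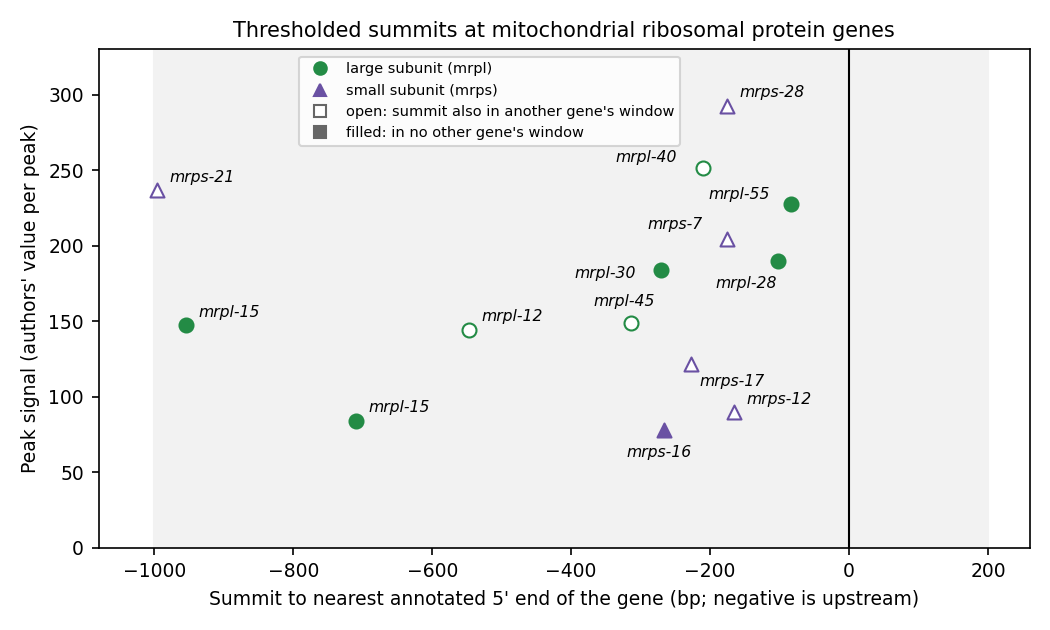
Signal of the 14 thresholded summits (authors' value per peak) against their distance to the nearest annotated 5' end of the gene in bp; circles are large subunit genes, triangles small subunit genes, filled symbols are summits in no other gene's window and the grey band is the window. Summits gather between 83 and 314 bp upstream, and those of mrps-21, mrpl-15 and mrpl-12 lie farther out.

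By descent of the protein, a summit was present at 6 of 30 genes whose RefSeq product is shared with bacteria (20%) and at 2 of 18 whose product is specific to mitochondria (11.1%). It was present at 5 of the 22 genes whose product name gives no such class (22.7%). With counts this small the shares of the classes do not separate. Their Wilson intervals (9.51 to 37.3%, 3.1 to 32.8% and 10.1 to 43.4%, in the same order) all hold the 11.2% of all genes. The names themselves need care: mrps-18C on chromosome III has the RefSeq product uL3m, a large subunit protein, and had no summit. The gene dap-3, whose human counterpart is the small subunit protein mS29 and which lacks the mrps- name, also had none.

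The genes were also divided by position on the chromosome, a division made after the values were seen. Counting the outer 25% of each chromosome at each end as arms, 10 of the 23 genes on arms had a summit (43.5%, Wilson interval 25.6 to 63.2%), and 3 of the 47 in centres did (6.38%, 2.19 to 17.2%). Over all autosomal genes the shares were nearly equal, 11.1% on arms and 11.5% in centres. The count in centres rests on few genes. Without replicate 2, that is with the strongest peaks of replicate 1 alone, it was 5 of 47 (10.6%), against 11.2% of all genes in centres. The genes in centres with a summit were mrps-21, mrps-17 and mrps-16, and all 7 large subunit genes with a summit lay on arms. The strongest summits on arms ranked from 440 to 2290, and those in centres stood at 603, 1511 and 2797, so the ranks overlap.

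For comparison, the cytosolic ribosomal protein genes had a summit at 18 of 23 on arms (78.3%) and 38 of 56 in centres (67.9%). The respiratory chain genes had one at 5 of 12 on arms (41.7%) and 9 of 23 in centres (39.1%). The intervals for arms and centres overlap in both of these sets and do not overlap among the mitochondrial ribosomal protein genes. By chromosome end the numbers are small and uneven. On the left arm of chromosome III all 3 genes, mrpl-40, mrpl-30 and mrpl-45, had a summit, against 87 of the 531 genes there (16.4%). On the right arm of chromosome V 2 of 3 had one, mrps-28 and mrps-12, against 56 of 1162 (4.82%). The right arm of chromosome IV had 1 of 1, against 9.28% of all genes there, and its left arm 1 of 4, against 15%. The left arm of I had 1 of 3, against 21.9%, and the right arm of III 1 of 3, against 21.6%. The left arm of II had 1 of 2, against 4.2%. The right arm of chromosome II had 0 of 2, against 15.6% of all genes there. The right arm of I had 0 of 1, against 14.2%, and the left arm of V 0 of 1, against 5.46%. In centres, chromosome III had 1 of 16, against 257 of 1563 (16.4%), and chromosome I had 0 of 11, against 241 of 1669 (14.4%). The centre of V had 0 of 6, against 8.99%. The centres of II and IV stood above the share of all genes there, with 1 of 8 (12.5%, against 9.99%) and 1 of 6 (16.7%, against 9.8%). None of the 70 genes is on the X chromosome, which holds 13.7% of all genes, and chromosome III holds 31.4% of the 70 and 13.2% of all genes.

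**Figure D3:**
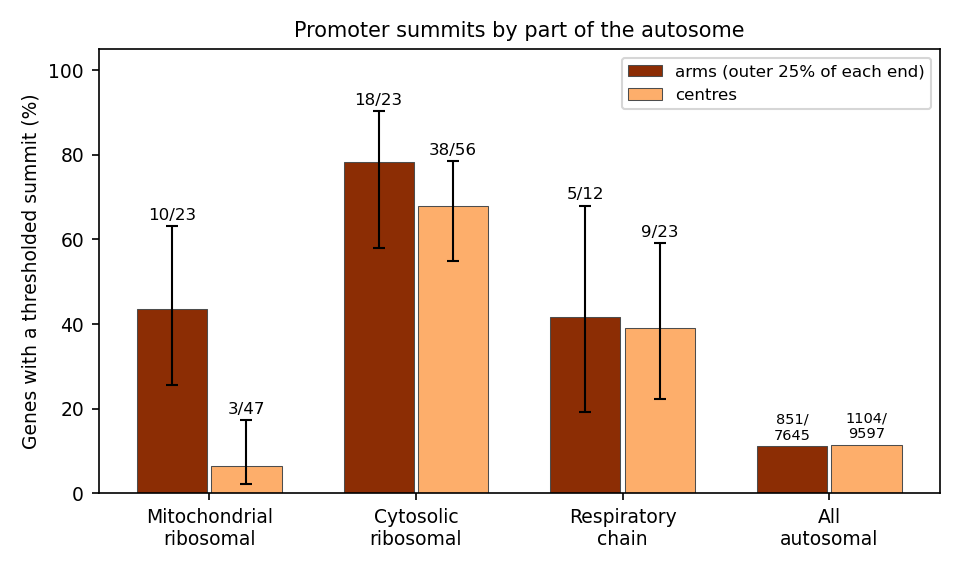
Share of genes with a thresholded summit on autosomal arms (dark, outer 25% at each end) and in centres (light), with counts above the bars and 95% Wilson intervals for counting error of genes. The mitochondrial ribosomal protein genes stand at 10 of 23 on arms and 3 of 47 in centres, while the 2 bars of every other set are closer together.

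Many worm genes are transcribed together from the promoter of the first gene of an operon. No operon annotation was used here. Runs were instead built by distance, from neighbouring genes on the same strand with at most 500 bp between them. By this rule 41 of the 70 genes were first in a run or alone, and 29 lay downstream of another gene. Genes first or alone had a summit at 10 of 41 (24.4%), against 11.6% of all such genes. Genes downstream had a summit in their own window at 3 of 29 (10.3%), against 9.69% of all downstream genes, so they stood at the background.

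The window of the first gene of the run held a summit for many of these downstream genes. Counting their own window or that of the first gene, 16 of 29 had a summit (55.2%, Wilson interval 37.5 to 71.6%), against 27.1% of all downstream genes. Over all 70 genes this made 26 (37.1%, 26.8 to 48.9%), against 14.7% of all genes. By the same count the cytosolic ribosomal protein genes stood at 76.5% (66.2 to 84.4%) and the respiratory chain genes at 60.5% (44.7 to 74.4%). The respiratory chain interval overlaps that of the mitochondrial ribosomal protein genes here, and the cytosolic one does not. Among the 13 downstream genes with an empty window of their own, the strongest summit was that of W04D2.4 ahead of mrps-11, with a signal of 379 at rank 297. This was stronger than any summit in the window of one of the 70 genes themselves. The DNA replication gene clsp-1 (claspin) ahead of mrpl-54 had a signal of 252 at rank 546, and the proteasome subunit gene rpn-3 ahead of mrpl-32 a signal of 244 at rank 578.

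The other first genes had signals from 66.8 to 161. They were uev-1 ahead of mrps-27, nrde-2 ahead of mrps-14, vps-37 ahead of mrpl-48, eif-3.E ahead of mrps-30, misc-1 ahead of mrpl-41, natc-1 ahead of both mrps-2 and mrpl-4, tag-124 ahead of mrpl-53, fars-1 ahead of mrpl-23 and F21D5.7 ahead of mrps-33. The products of these genes are varied, and include a translation initiation factor subunit (eif-3.E), a mitochondrial 2-oxoglutarate and malate carrier (misc-1) and a phenylalanine tRNA ligase (fars-1). The runs headed by atp-2, the ATP synthase beta subunit gene that precedes mrps-26, by cct-2, which precedes mrpl-50, and by rpb-6, which precedes dap-3 and mrps-22, had no summit at the first gene. Whether the genes of a run are transcribed together was not tested.

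Arms and centres differ in this respect: 5 of the 23 genes on arms lay downstream in a run, and 24 of the 47 in centres. Among genes first or alone, 8 of 18 on arms had a summit (44.4%, Wilson interval 24.6 to 66.3%) and 2 of 23 in centres (8.7%, 2.42 to 26.8%), and these intervals overlap. Among genes downstream, 2 of 5 on arms and 1 of 24 in centres had one in their own window. Counting the first gene of the run as well, 4 of 5 downstream genes on arms and 12 of 24 in centres (50%) had a summit. Over all 70 genes this count gave 12 of 23 on arms (52.2%, 33 to 70.8%), against 13.8% of all genes on arms, and 14 of 47 in centres (29.8%, 18.7 to 44%), against 16.3% of all genes in centres. By this count the intervals for arms and centres overlap. No share of all genes is given by run position and chromosome part together. Over all chromosomes the shares were 11.6% for genes first or alone and 9.69% for downstream genes. For downstream genes with the first gene counted as well, the share was 27.1%. The part of run position in the difference between arms and centres was not tested.

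The relaxed lists hold 30000 peaks each, one for each replicate and one for both pooled, and reach far into weak signal. In the pooled list 54 of the 70 genes had a summit in the window (77.1%, Wilson interval 66 to 85.4%), against 41.6% of all genes. The replicate 1 list had one at 53 (75.7%), against 41.8% of all genes, and the replicate 2 list at 52 (74.3%), against 42.8%. By the strongest pooled summit, 13 genes fell within ranks 1 to 3531, 19 within 3532 to 10000, 13 within 10001 to 20000 and 9 within 20001 to 30000, and 16 had none. Over all 19973 genes these classes held 2240, 2502, 2080 and 1492 genes in the same order, and 11659 had none. Of the genes with a pooled summit, 32 of 54 mitochondrial ribosomal protein genes (59.3%) had one within the first 10000 ranks, against 4742 of all 8314 (57%). The cytosolic ribosomal protein genes had 57 within the first range and 10 within the second, of 81. The respiratory chain genes had 17 and 6, of 38. The median rank over all 70 genes, those with no summit placed last, was 12004.5, against 2064 for cytosolic ribosomal protein genes and 4385 for respiratory chain genes.

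**Figure D4:**
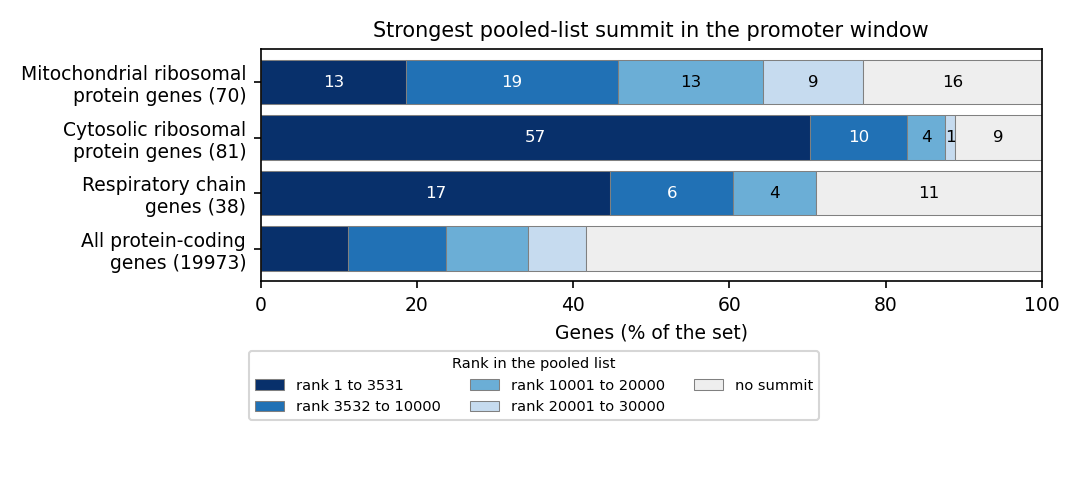
Percentage of each gene set by the rank of its strongest summit in the pooled relaxed list, from rank 1 to 3531 (darkest) to no summit (grey), with gene counts in the bars. The mitochondrial ribosomal protein genes have 13 in the darkest class and 19 in the next, and 16 of 70 with no summit.

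The genes just below the length of the thresholded list were mrps-6 (bS6m), mrps-35 (mS35), mrpl-53, mrps-31 (mS31) and mrpl-47 (uL29m). In the pooled list mrps-6 had rank 3731 with a signal of 63.7, 233 bp upstream, and ranked 5581 in replicate 1 and 2960 in replicate 2. The gene mrps-35 had rank 3987, with 3614 in replicate 1 and 5699 in replicate 2. The gene mrpl-53 had rank 3991, with 3202 in replicate 1 and 8811 in replicate 2, and mrps-31 had rank 3993, with 2999 in replicate 1 and 7605 in replicate 2. The gene mrpl-47 had rank 4202, with 4556 in replicate 1 and 5469 in replicate 2. For each of these 5 genes at least 1 replicate placed the peak beyond the 3531 strongest. The gene just inside was mrps-16 at rank 2797.

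Taking the 3531 strongest peaks of each replicate alone, 16 of the genes had a summit in replicate 1, against 11% of all genes, and 13 in replicate 2, against 10.9%. Of these, 11 genes were in both, and all 11 were in the thresholded list. The share of all genes in both is not given. The genes mrpl-37, mrpl-53, mrps-31, mrps-16 and mrps-21 were among the genes of replicate 1 and not of replicate 2, and mrps-16 and mrps-21 of these were in the thresholded list. The genes mrpl-18 and mrps-6 were among those of replicate 2 and not of replicate 1. At the other end, 9 genes had no summit in the window in any of the 3 relaxed lists: mrpl-2, mrpl-44, mrpl-48, mrpl-50, mrpl-54, mrps-11, mrps-15, mrps-18B and mrps-22. Of these, mrpl-48, mrpl-54 and mrps-11 lie downstream of a first gene with a thresholded summit. The share of all genes with no summit in any of the 3 lists is not given. In the pooled list alone, 16 of the 70 genes and 11659 of all 19973 had none. The divergent pair mrpl-1 and mrps-24 (uS3m) shared 1 summit in the pooled list, at rank 9399.

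Other genes of mitochondrial translation were read the same way, from lists of names chosen with earlier results of these data known. Of 35 names for translation factors, tRNA ligases and related enzymes, 27 matched the annotation and 5 had a summit (18.5%, Wilson interval 8.18 to 36.7%), against 11.2% of all genes. The strongest was fars-2, a phenylalanine tRNA ligase gene, with a signal of 354 at rank 335. The glutamyl-tRNA synthetase gene ears-2 had a signal of 254 at rank 539. The alanine tRNA ligase gene aars-1 had 157, mtcu-2, a homologue of the tRNA-modifying enzyme MTO1, had 138, and tufm-1, which codes for the elongation factor Tu that brings tRNAs to the mitochondrial ribosome, had 89.4. Of 9 names for upkeep and transcription of the mitochondrial genome, 8 matched and 2 had a summit (25%, 7.15 to 59.1%). These were polg-1, the mitochondrial DNA polymerase gene, with a signal of 288 at rank 457, and mtss-1, which codes for the single-stranded DNA-binding protein, with 104 at rank 1877. Both intervals hold the 11.2% of all genes.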

How the data were processed

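Per the deposited file records, the authors made a relaxed peak list on ce11 for each of 2 replicates with a control, one for both replicates pooled, and a thresholded list by the irreproducible discovery rate. Aligner and peak caller: not given in the sources used here, nor are their versions. The signal and the −log10 q-value of each peak are used as the authors deposited them, and ranks are by signal within a list. The lists hold no read counts, so depth is unknown, and Wilson intervals (95%) cover counting error of genes only. The group and replicate numbers come from the labels.

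Gene positions came from Ensembl release 115, products and sequence from RefSeq, both WBcel235. Only protein-coding transcripts gave 5' ends. Replicate peaks were taken as partners where intervals overlapped by at least 1 bp. No tests were run, since there is 1 group. The members and gene lists were chosen with earlier results of these data known. Genes named are all with a thresholded summit, the 5 strongest without one, and genes sharing a window or run with a described gene. The genes with no summit in any list and those found in 1 replicate alone were named after their values were seen. Alternatives were other windows, assignment rules, run gaps, motif windows, signal limits and each replicate alone. Scripts used Python 3.11.15, numpy 2.4.6, scipy 1.17.1 and matplotlib 3.10.9, and were tested on simulated data.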

Additional observations from a re-analysis of the deposited data

How the results depend on the processing

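The count of 13 mitochondrial ribosomal protein genes with a summit ranged from 9 to 16 over the alternatives run, above the share of all genes in each. It was 9 with assignment to the nearest 5' end (12.9% of the 70, against 9.51% of all genes), 10 with the shorter window and 15 with the longer one. Each replicate alone gave 13 without replicate 1 and 16 without replicate 2. The count of 26 with first genes included ranged from 22 to 27. The share of summits with AATCGAT or AATCAAT followed the window size, from 28.6% to 57.1%, as did the share at all promoter summits, from 26.3% to 48.4%. The count of 54 in the pooled relaxed list was 43 and 57 with the shorter and longer windows. Alternatives for arms and centres were chosen after seeing the data. With arms of 20% and 30%, the counts were 9 of 20 and 11 of 32 on arms, and 4 of 50 and 2 of 38 in centres. The count in centres was 3 without replicate 1 and 5 without replicate 2. No paired analysis was possible because there is only 1 group. With 13 genes and 14 summits, small differences in share cannot be resolved, and signals do not allow a comparison between lists.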
